A study of Capra hircus with 12 samples.

Results

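The nuclear genes of respiratory complexes II and V were examined in cells of the goat temporomandibular joint (TMJ). Members were the rows whose gene name matches the subunit genes of complexes II to V: SDHA, SDHB, SDHC and SDHD for complex II, UQCR names and CYC1 for complex III, COX4 to COX8 names for complex IV and ATP5 names for complex V. The pattern found 21 of the 28910 rows, 4 of complex II and 17 with an ATP5 name. It matched 0 rows for complex III and 0 for complex IV, so the nuclear subunits of these complexes were not analysed here. Of the 17 ATP5 rows, 15 were core subunits of the ATP synthase. The other two, ATP5S and ATP5SL, are not core subunits. ATP5S is known as coupling factor B, and ATP5SL is known from the assembly of complex I.

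RNA-seq was performed on superficial layer cells (SLC) and middle cartilage layer cells (MLC), each treated with IL-1β alone or with IL-1β and LOXL2, with 3 libraries in each of the 4 groups. The cells came from TMJs of female goats 6 to 9 months old from abattoirs and were used at passages 3 to 5, and the sources used here do not say how many animals were pooled or whether replicates came from separate animals. All 12 libraries were from cells that received 10 ng of IL-1β for 1 h, and the groups with LOXL2 had been transduced overnight with an Ad5-LOXL2 adenovirus. No empty-virus control is described for the IL-1β groups in the culture methods. The study's flow cytometry methods name an Ad5-Empty virus, and whether the IL-1β cells sequenced here received it is not stated. LOXL2 and adenoviral transduction therefore cannot be told apart, and vehicle cells were not analysed here. Total counts ranged from 14158607 to 28931652 per library.

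The goat LOXL2 row did not rise in the libraries labelled with LOXL2. It stood at 617.9, 617.6 and 637.4 CPM (counts scaled to a common library size) in SLC with IL-1β and at 461.7, 549.0 and 564.6 CPM in the libraries labelled IL-1β + LOXL2, and in MLC at 765.0, 871.3 and 814.4 against 814.8, 787.9 and 747.5 CPM. The sequence of the viral insert is not given in the sources used here, so these counts do not check the labels, and the libraries are named by their labels throughout. Of 12 chondrocyte markers found, MATN1 was at 0 in every library, and COL2A1 and COL9A1 were also at 0 in all 3 SLC IL-1β libraries. COL2A1 was 10.4 to 20.7 CPM in the 6 MLC libraries. ACAN, the main cartilage proteoglycan, was 29.6 to 54.8 CPM in SLC and 310.0 to 433.5 CPM in MLC. PRG4, a superficial layer marker, was not higher in SLC, at 3.68 to 5.55 CPM against 4.80 to 7.23 CPM in MLC. The first SLC IL-1β + LOXL2 replicate stood apart from the others of its group, so counts of calls in SLC and the main SLC values are also given without it.

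The respiratory chain passes electrons from nutrients to oxygen across the inner mitochondrial membrane and stores the energy as a proton gradient. Complex II, succinate dehydrogenase, oxidises succinate in the tricarboxylic acid cycle, feeds the electrons to ubiquinone and pumps no protons. All its subunits are encoded in the nucleus. Complex V, the ATP synthase, lets protons flow back through a ring of c subunits, and the turning of this ring drives ATP synthesis in the F1 head. Its a subunit and A6L are encoded by mitochondrial DNA as ATP6 and ATP8. Articular chondrocytes live at low oxygen and make much of their ATP by glycolysis. In the tables the ATP synthase genes carry older symbols, which are kept here with the current symbol where a gene is first described.

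With LOXL2, every one of the 21 genes was higher in the mean in both layers, by a median of 0.61 in SLC and 0.37 in MLC on the log2 scale, beside medians over all tested genes of 0.01 in both, where 50.7% and 50.9% of genes were higher. In SLC the 3 libraries labelled with LOXL2 lay above the 3 IL-1β libraries for all 21 members, whereas 24.9% of all 14103 tested genes separated in this direction. In MLC they did so for 18 of 21, whereas 20.5% of 13664 genes did. The test across all genes called 0 members in SLC, where it called 0% of genes in either direction, and 12 members higher in MLC, where it called 9.81% of genes higher. A change in the share of cells of a type and a change in RNA per cell cannot be told apart in these bulk samples. Called means a Benjamini-Hochberg adjusted p below 0.05 over all genes tested, from edgeR's quasi-likelihood test.

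**Figure D1:**
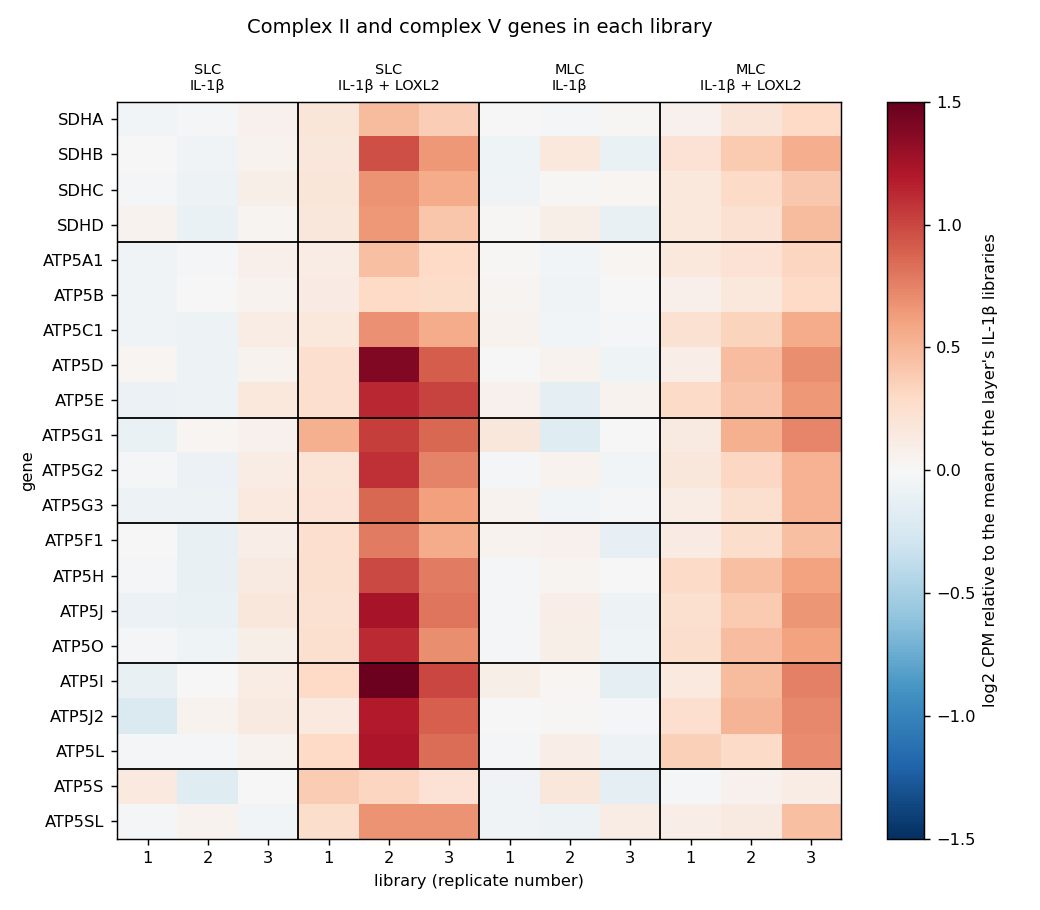
Heat map of the 21 genes (rows, grouped as complex II, F1 head and central stalk, c ring, peripheral stalk, small membrane subunits and the pair of ATP5-named genes outside the core) in the 12 libraries (columns). Colour gives the log2 CPM of a library relative to the mean of the 3 IL-1β libraries of the same layer. The second SLC IL-1β + LOXL2 replicate has a median of 0.97 over the genes and the first 0.23, and the 3 MLC IL-1β + LOXL2 replicates have 0.16, 0.32 and 0.54.

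Summed over the 4 genes of complex II, levels in SLC were 387.7, 382.3 and 411.5 CPM with IL-1β and 445.7, 612.9 and 545.7 CPM with LOXL2. In MLC the sums were 417.4, 428.7 and 418.2 CPM against 456.9, 501.6 and 547.5 CPM. The groups did not overlap in either layer, and with LOXL2 the spread between replicates was wider. Summed over the 15 genes of complex V, levels in SLC were 1763, 1769 and 1940 CPM with IL-1β and 2083, 3197 and 2714 CPM with LOXL2. In MLC they were 1935, 1890 and 1880 CPM against 2126, 2323 and 2639 CPM. These sums add read counts that are not corrected for transcript length, so they follow a complex across libraries but do not compare one complex with another.

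**Figure D2:**
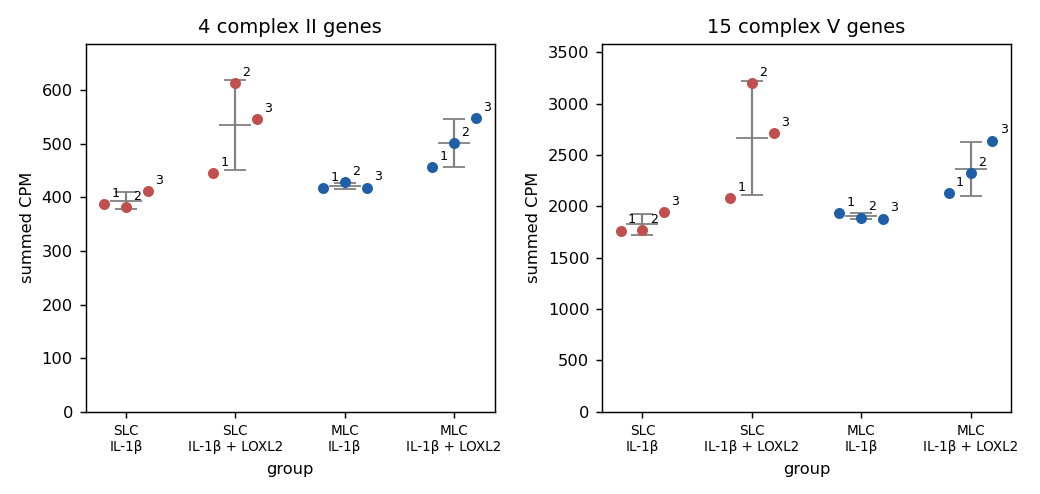
Summed CPM of the 4 complex II genes (left) and of the 15 complex V genes (right) in the 4 groups, where each point is a library with its replicate number, and the bars give the mean ± SD of 3 libraries. Both axes start at 0. In SLC with LOXL2, complex V ranges from 2083 to 3197 CPM and lies above the highest IL-1β library at 1940 CPM.

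The ratio of the complex II sum to the complex V sum was 0.22, 0.216 and 0.212 in SLC with IL-1β and 0.214, 0.192 and 0.201 with LOXL2. In MLC it was 0.216, 0.227 and 0.222 with IL-1β and 0.215, 0.216 and 0.207 with LOXL2. The ratios overlapped between treatments in both layers, and the lowest value was that of the second SLC replicate with LOXL2.

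Within complex II, SDHB was the member with the largest difference in both layers. SDHB encodes the iron-sulfur subunit, which carries electrons from the flavin to ubiquinone. It lies on chromosome 2 at 579204 to 611101 (ARS1.2) and has the widest genomic span of all members. In SLC it was at 74.9, 72.6 and 78.1 CPM with IL-1β and at 84.5, 147.1 and 117.9 CPM with LOXL2. In MLC it was at 68.2, 79.7 and 66.9 CPM with IL-1β and at 83.3, 94.3 and 104.3 CPM with LOXL2. All 3 libraries with LOXL2 were above all 3 without in each layer. The log2 fold change was 0.61 ± 0.19 (SE, n = 3 per group) in SLC, with an adjusted p of 0.0717 by edgeR, and 0.39 ± 0.11 in MLC, with an adjusted p of 0.0313 by edgeR. SDHB was the 1 of 4 complex II genes that passed the test in MLC, where 9.81% of all genes were called higher. In SLC 0 of 4 passed, where 0% of all genes did. There all 4 had an unadjusted p under 0.05 and DESeq2 called 3, beside 23.1% and 16.3% of all genes that were higher by these rules.

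SDHA encodes the flavoprotein that binds succinate. In SLC it was at 193.9, 198.2 and 208.8 CPM with IL-1β and at 227.6, 278.4 and 259.2 CPM with LOXL2. The MLC levels were 237.7, 232.1 and 239.3 CPM against 246.9, 270.3 and 290.1 CPM. The groups did not overlap in either layer, and the first library with LOXL2 was the lowest of its group both times. The log2 fold changes of SDHA were 0.33 ± 0.11 (SE) in SLC and 0.18 ± 0.09 in MLC, the smallest of complex II, with adjusted p of 0.0746 and 0.144 by edgeR.

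SDHC and SDHD encode the membrane anchors that hold the ubiquinone site. SDHC was at 77.6, 74.2 and 83.3 CPM in SLC with IL-1β and at 88.5, 124.7 and 115.2 CPM with LOXL2, and in MLC at 71.1, 74.7 and 75.2 CPM against 82.3, 90.2 and 97.9 CPM. SDHD was at 41.3, 37.4 and 41.2 CPM in SLC with IL-1β and at 45.04, 62.6 and 53.3 CPM with LOXL2, and in MLC at 40.4, 42.2 and 36.9 CPM against 44.5, 46.8 and 55.2 CPM. Neither gene's groups overlapped in a layer. Their log2 fold changes were 0.46 ± 0.14 and 0.40 ± 0.14 (SE) in SLC. In MLC they were 0.28 ± 0.10 and 0.29 ± 0.11, and the adjusted p for SDHC was 0.0502 and for SDHD 0.0733 by edgeR.

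Complex II needs its own assembly factors, among them SDHAF2, which helps to attach the flavin to SDHA, and SDHAF1 and SDHAF3, which serve the maturation of SDHB. All 4 of the list, SDHAF1 to SDHAF4, were higher in the mean with LOXL2 in both layers, with median log2 fold changes of 0.74 in SLC and 0.36 in MLC. None was called in either layer by edgeR. At an unadjusted p under 0.05 there were 3 in SLC and 1 in MLC, where 23.1% and 19.2% of all genes were higher, and DESeq2 called 3 and 1, where it called 16.3% and 12.5% of all genes higher.

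The 15 genes of the ATP synthase were higher in the mean with LOXL2 in both layers, where 50.7% of all genes in SLC and 50.9% in MLC were. In MLC 11 of the 15 passed the test, where 9.81% of all genes were called higher. The complex V median on the log2 scale was 0.71 for SLC and 0.43 for MLC, beside 0.43 and 0.29 for complex II. The estimates were smallest for the catalytic core. ATP5A1 (current symbol ATP5F1A, subunit alpha) and ATP5B (ATP5F1B, subunit beta) form the hexamer of the F1 head in which ATP is made. Their log2 fold changes were the smallest of complex V in both layers.

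ATP5B, on chromosome 5 at 56168087 to 56173841, was at 347.9, 360.0 and 375.4 CPM in SLC with IL-1β and at 394.7, 442.6 and 438.4 CPM with LOXL2. MLC libraries held it at 453.0, 426.4 and 444.3 CPM against 464.7, 494.2 and 541.7 CPM. The groups did not overlap, but the steps were small beside the other members. ATP5B differed by 0.22 ± 0.10 (SE) in SLC and 0.17 ± 0.09 in MLC on the log2 scale, with adjusted p of 0.133 and 0.154 by edgeR. ATP5A1 was at 423.1, 431.8 and 460.4 CPM in SLC with IL-1β and at 475.4, 598.8 and 538.8 CPM with LOXL2, and in MLC at 460.9, 441.9 and 463.4 CPM against 509.3, 528.5 and 571.2 CPM. Its log2 fold changes were 0.27 ± 0.12 and 0.23 ± 0.08, with adjusted p of 0.113 and 0.0637 by edgeR.

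The other 3 genes of the F1 part encode the central stalk, which turns inside the head: ATP5C1 (ATP5F1C, gamma), ATP5D (ATP5F1D, delta) and ATP5E (ATP5F1E, epsilon). All 3 passed the test in MLC, where 9.81% of all genes were called higher. Their log2 fold changes there were 0.37 for ATP5C1, 0.43 for ATP5D and 0.46 for ATP5E. In SLC their log2 fold changes were 0.47, 0.90 and 0.83. ATP5D was at 99.6, 92.8 and 101.3 CPM in SLC with IL-1β and at 116.3, 256.4 and 184.2 CPM with LOXL2, so that its second replicate with LOXL2 was far above the first.

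As a share of the complex V sum, ATP5A1 and ATP5B together made up 43.7%, 44.8% and 43.1% in SLC with IL-1β and 41.8%, 32.6% and 36.0% with LOXL2. In MLC the share was 47.2%, 46.0% and 48.3% with IL-1β and 45.8%, 44.0% and 42.2% with LOXL2. The libraries with LOXL2 were lower in both layers without overlap. This share was computed after the gene values were seen, and the 13 other genes of the complex make up the rest of it.

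The c ring is built from 1 mature protein that 3 genes encode with different import sequences: ATP5G1 (ATP5MC1), ATP5G2 (ATP5MC2) and ATP5G3 (ATP5MC3). Because the genes are near relatives and the handling of reads that map to several genes is not given in the sources used here, their split is uncertain. ATP5G1 was at 32.4, 35.6 and 36.5 CPM in SLC with IL-1β and at 50.4, 71.3 and 63.4 CPM with LOXL2. In MLC it was at 49.9, 39.1 and 44.2 CPM against 48.8, 64.1 and 73.9 CPM. The SLC groups were apart, while in MLC the first replicate with LOXL2 fell below the first with IL-1β. The log2 fold change was 0.80 ± 0.14 (SE) in SLC, with an adjusted p of 0.0706 by edgeR, and 0.48 ± 0.15 in MLC, with an adjusted p of 0.0375 by edgeR.

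ATP5G2 was at 139.8, 134.9 and 154.7 CPM in SLC with IL-1β and at 165.6, 306.2 and 240.4 CPM with LOXL2, and in MLC at 137.9, 145.2 and 135.8 CPM against 156.6, 173.8 and 200.3 CPM. ATP5G3 was at 92.2, 92.6 and 107.9 CPM in SLC with IL-1β and at 113.0, 176.6 and 149.5 CPM with LOXL2, and in MLC at 105.4, 98.4 and 99.96 CPM against 109.4, 119.9 and 145.2 CPM. Neither gene's groups overlapped. Log2 fold changes were 0.71 ± 0.21 (SE) for ATP5G2 and 0.56 ± 0.17 for ATP5G3 in SLC. In MLC they were 0.34 ± 0.10 and 0.30 ± 0.11, of which the former passed the test with an adjusted p of 0.0364 and the latter had 0.0663 by edgeR. Without the third MLC replicate with LOXL2, ATP5G3 had 0.18.

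The share of ATP5G1 in the reads of the 3 genes differed between the layers. It was 12.2%, 13.5% and 12.2% in SLC with IL-1β, and 15.3%, 12.9% and 14.0% with LOXL2. In MLC it was 17.0%, 13.8% and 15.8% with IL-1β, and 15.5%, 17.9% and 17.6% with LOXL2. The MLC libraries were above the SLC libraries of the same treatment in each case, by a mean of 2.92 percentage points. A two-sided exact permutation test of layer within treatment gave p = 0.005, the smallest that its 400 arrangements allow, and an adjusted p of 0.01 over 2 tests. With LOXL2 the share was 1.42 percentage points higher, with overlap in both layers and an exact permutation p of 0.07, also 0.07 after adjustment.

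The peripheral stalk keeps the F1 head from turning with the ring. Its genes are ATP5F1 (ATP5PB, subunit b), ATP5H (ATP5PD, subunit d), ATP5J (ATP5PF, F6) and ATP5O (ATP5PO, the subunit OSCP that caps the head). In MLC, 3 of the 4 passed the test, all but ATP5F1, where 9.81% of all genes were called higher. The median log2 fold change of the 4 was 0.44 in MLC and 0.70 in SLC. ATP5O, on chromosome 1 at 72191 to 79644, was at 84.2, 82.6 and 91.4 CPM in SLC with IL-1β and at 101.5, 187.0 and 139.8 CPM with LOXL2. The MLC levels were 82.8, 89.2 and 80.6 CPM against 101.1, 115.8 and 128.4 CPM. All libraries with LOXL2 were above those without, and the SLC replicates with LOXL2 were the more scattered. Its log2 fold changes were 0.71 ± 0.21 (SE) in SLC and 0.44 ± 0.10 in MLC, with adjusted p of 0.0706 and 0.0213 by edgeR. ATP5H had the lowest adjusted p of the members in MLC, 0.0205 by edgeR, at a log2 fold change of 0.45 ± 0.10.

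The small membrane subunits e, f and g, encoded by ATP5I (ATP5ME), ATP5J2 (ATP5MF) and ATP5L (ATP5MG), take part in the pairing of ATP synthases that shapes the cristae. These 3 genes had the highest median of the subunit groups, 0.81 in SLC and 0.47 in MLC. All 3 passed the test in MLC, where 9.81% of all genes were called higher. ATP5I, the member with the largest difference in SLC, was at 40.6, 43.6 and 47.3 CPM with IL-1β and at 53.9, 121.4 and 87.6 CPM with LOXL2. MLC libraries held it at 36.5, 34.8 and 31.2 CPM against 37.9, 47.5 and 57.8 CPM. In MLC its first replicate with LOXL2 lay only just above the IL-1β libraries. ATP5I differed by 0.98 ± 0.26 (SE) in SLC and 0.47 ± 0.14 in MLC on the log2 scale, with adjusted p of 0.0706 and 0.0357 by edgeR.

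ATP5J2, the member with the largest difference in MLC, was at 35.3, 35.6 and 35.0 CPM with IL-1β and at 42.1, 50.4 and 58.4 CPM with LOXL2. In SLC it was at 34.4, 41.4 and 43.9 CPM against 44.3, 90.8 and 74.0 CPM. The 3 MLC libraries with IL-1β were nearly equal, and the SLC groups were separated by less than 1 CPM. The log2 fold change of ATP5J2 was 0.50 ± 0.12 (SE) in MLC, with an adjusted p of 0.0218 by edgeR, and 0.78 ± 0.25 in SLC, with 0.0725.

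The pair of ATP5-named genes outside the core behaved less evenly. ATP5S was at 10.3, 8.2 and 9.4 CPM in SLC with IL-1β and at 12.1, 11.7 and 10.9 CPM with LOXL2, and in MLC at 9.8, 11.5 and 9.3 CPM against 10.0, 10.7 and 11.03 CPM. ATP5SL was at 18.5, 19.5 and 18.2 CPM in SLC with IL-1β and at 22.5, 29.9 and 30.0 CPM with LOXL2, and in MLC at 19.0, 18.6 and 21.2 CPM against 21.0, 21.6 and 26.7 CPM. Both were apart in SLC and overlapped in MLC. Log2 fold changes in MLC were 0.04 ± 0.14 (SE) for ATP5S and 0.23 ± 0.12 for ATP5SL, with adjusted p of 0.842 and 0.184 by edgeR. Without the third MLC replicate with LOXL2, ATP5SL had 0.12.

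**Figure D3:**
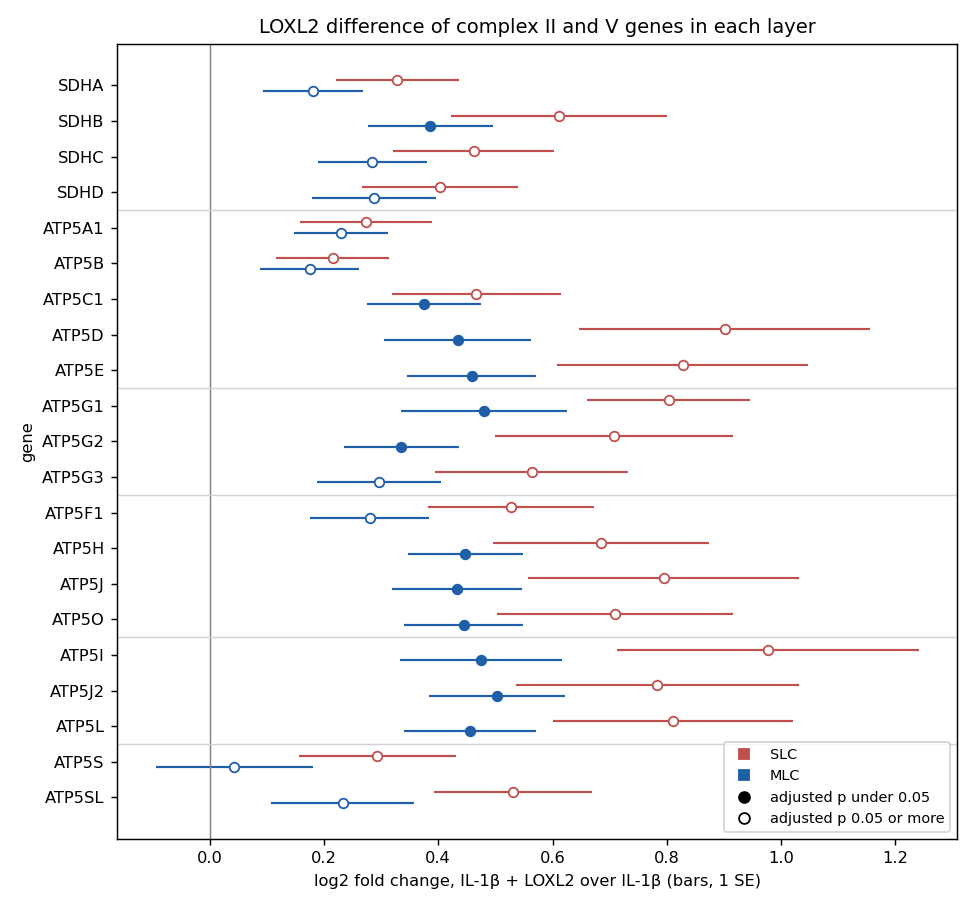
Log2 fold change of IL-1β + LOXL2 over IL-1β for each gene in SLC (red) and MLC (blue), with 1 SE. Filled points have an adjusted p below 0.05 by edgeR. In each layer ATP5A1 and ATP5B have the smallest values of the 15 core complex V genes, and filled points occur in MLC, for 12 genes, and not in SLC. Over all genes, 9.81% were called higher in MLC and 0% in SLC.

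The size of the difference varied by library in a common way. In SLC, replicate 1 with LOXL2 was the lowest of its group and replicate 2 the highest in 19 of 21 genes, and in MLC replicate 1 was the lowest and replicate 3 the highest in 20 of 21. Relative to the IL-1β mean of the layer, the median over the genes was 0.23, 0.97 and 0.68 in the 3 SLC libraries with LOXL2 and 0.16, 0.32 and 0.54 in the 3 of MLC, on the log2 scale. Cytosolic ribosomal protein genes spread over these libraries as well. Their summed level was 46803 to 91179 CPM in SLC with LOXL2 and 37161 to 42232 CPM with IL-1β, and 42989 to 58621 against 35849 to 38822 CPM in MLC. The part of this shared spread in the results was not tested.

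The absence of calls in SLC depended on the first replicate with LOXL2. Without it, 20 of the 21 members passed the test, where 31% of all genes were called higher. Leaving out any other library in turn left 0, where 0% of all genes were called higher. The median log2 fold change without the first replicate with LOXL2 was 0.79 over the members, 0.55 for complex II and 0.91 for complex V. SDHB then had 0.79 ± 0.10 (SE), SDHA 0.40 ± 0.09, ATP5B 0.26 ± 0.09, ATP5A1 0.35 ± 0.09 and ATP5I 1.23 ± 0.13, and ATP5S, at 0.25 ± 0.14, was the member that did not pass. ATP5B and ATP5A1 remained the smallest of complex V. Without the second replicate with LOXL2 instead, which was the highest, SDHB had 0.41, ATP5O 0.47 and ATP5I 0.67. DESeq2 called 17 members in SLC with all libraries, where it called 16.3% of genes higher. A fit of all 12 libraries called 20, where it called 22.5%. At an unadjusted p under 0.05, edgeR had 19 members and 23.1% of genes higher in SLC.

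Calls in MLC also depended on single libraries. Leaving out the first replicate with LOXL2 raised the members called from 12 to 20, where 23.7% of genes were called higher. Leaving out IL-1β replicate 1 or 3, or LOXL2 replicate 2 or 3, left 0. Over all genes, 0% were called higher without IL-1β replicate 1 or 3 or without LOXL2 replicate 2. Leaving out the second IL-1β replicate left 3, SDHB, ATP5H and ATP5O, where 1.53% of genes were called higher. The fit of all 12 libraries called 0 members and 0% of genes higher in MLC, with 11 members at an unadjusted p under 0.05, where 12% of genes were higher.

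The LOXL2 difference was smaller in MLC than in SLC in the estimates of all 21 members, but the interaction of layer and treatment passed the test for 0 of them, with 0% of 14519 genes called in either direction. The median interaction was -0.28 on the log2 scale, beside -0.02 over all tested genes, of which 53.6% were lower, and 0 members had an unadjusted p under 0.05 where 1.23% of genes did in this direction. DESeq2 also called 0. The most negative estimate was that of ATP5I, -0.52 with a 95% interval of -1.24 to 0.20, and the nearest to 0 was that of ATP5B, -0.05 with an interval of -0.31 to 0.21. Leaving out single libraries moved ATP5I between -0.77, without the first SLC replicate with LOXL2, and -0.21, without the second, and ATP5B between -0.11 and -0.0019. Without the first SLC replicate with LOXL2, 15 members had an unadjusted p under 0.05, where 14.7% of genes were lower by this rule, and 0 passed the adjusted threshold.

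The differences varied with gene span. Over all genes, the log2 fold change with LOXL2 fell with the genomic length from first to last base of the gene (Spearman correlation of -0.49 in both layers, over 14073 genes in SLC and 13637 in MLC). Over the 21 members the correlation was -0.62 in SLC and -0.56 in MLC, and over the 15 complex V genes -0.61 and -0.53. Points within a layer share the same 6 libraries. The members had a median span of 7933 bases, from 1817 for ATP5I to 31898 for SDHB, where the median of all tested genes was 20774 bases in SLC.

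With the trend on span removed in each library, the median of complex II was 0.45 and that of complex V 0.48 in SLC, and in MLC they were 0.26 and 0.26. The wider gap between the complexes in the uncorrected values was thus not seen after this step. SDHB then had the largest value of all members, 0.72 ± 0.20 (SE) in SLC and 0.45 ± 0.11 in MLC. ATP5B, with a span of 5755 bases, had -0.039 ± 0.089 in SLC and 0.0017 ± 0.069 in MLC. In MLC 7 members passed the test after this step, SDHB, SDHC, ATP5C1, ATP5H, ATP5J2, ATP5L and ATP5O, where 7.79% of genes were called higher. In SLC 0 did, with 17 members at an unadjusted p under 0.05, where 23.2% of genes were higher. Whether span or a property that goes with it plays a part in the differences was not tested, and transcript lengths were not used here.

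**Figure D4:**
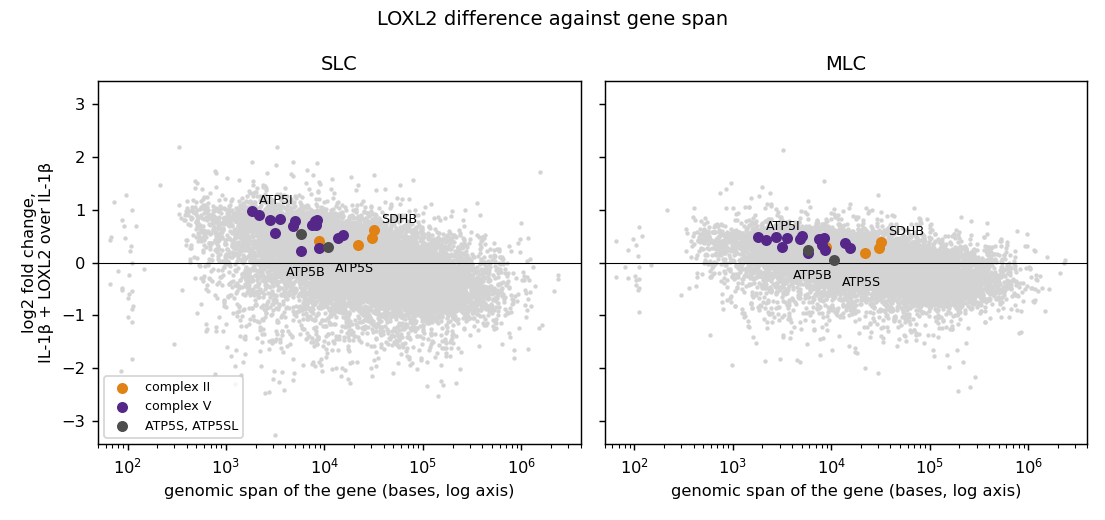
Log2 fold change of IL-1β + LOXL2 over IL-1β against the genomic span of the gene in bases (log axis), in SLC (left) and MLC (right). Grey points are all tested genes with a known span, and coloured points are the members. The Spearman correlation over the grey points is -0.49 in each panel, and ATP5B lies below the other complex V genes of like span.

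Without LOXL2, most members did not pass the test between the layers, and those that did had no common direction. Under IL-1β, 4 of the 21 members were called higher in MLC and 3 lower. These shares were below those over all 13953 genes, of which 24.2% were called higher and 22.7% lower. The median over members was 0.01 on the log2 scale. Each layer's counts came in a table of its own, so that layer and table cannot be told apart. The higher genes were ATP5G1 at 0.36 ± 0.09 (SE), ATP5B at 0.30 ± 0.06, SDHA at 0.25 ± 0.06 and ATP5D at 0.18 ± 0.06. The lower genes were ATP5I at -0.35 ± 0.08, ATP5H at -0.29 ± 0.07 and ATP5E at -0.22 ± 0.08. The adjusted p of these 7 ranged from 0.000694 for ATP5B to 0.0405 for ATP5E by edgeR. Without the third SLC replicate ATP5E had -0.13 and without the second MLC replicate -0.16, and it did not pass in either case, nor at -0.25 without the third MLC replicate. A fit of all 12 libraries called ATP5B alone, where 14.2% of genes were called higher. The CPM values given above for SDHA, ATP5B, ATP5G1 and ATP5I show no overlap between the layers under IL-1β, while 14 of the 21 members overlapped. ATP5H was at 67.7, 64.0 and 76.3 CPM in SLC and at 55.0, 57.9 and 55.8 CPM in MLC.

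With IL-1β and LOXL2, 0 members passed the test between layers, where 9.29% of 14074 genes were called higher and 6.83% lower. The estimates of 17 of the 21 were lower in MLC, where 53.3% of genes were, and the median was -0.26. ATP5I, ATP5H and ATP5E had an unadjusted p under 0.05, where 14.3% of genes did in this direction, with log2 fold changes of -0.85 ± 0.29 (SE), -0.53 ± 0.19 and -0.59 ± 0.22 and adjusted p of 0.092, 0.112 and 0.127 by edgeR. ATP5I was at 53.9 to 121.4 CPM in SLC and 37.9 to 57.8 CPM in MLC, so that the groups overlapped. With the replicate number as a block these same 3 genes passed the test, where 13.2% of genes were called lower, ATP5I at -0.80 ± 0.16, ATP5H at -0.50 ± 0.12 and ATP5E at -0.55 ± 0.14, with adjusted p of 0.0062, 0.0166 and 0.0169 by edgeR. Whether the replicate numbers pair these libraries is uncertain. Without the first SLC replicate with LOXL2, 11 members were called lower in MLC, where 16.1% of genes were, and ATP5I had -1.10.

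**Figure D5:**
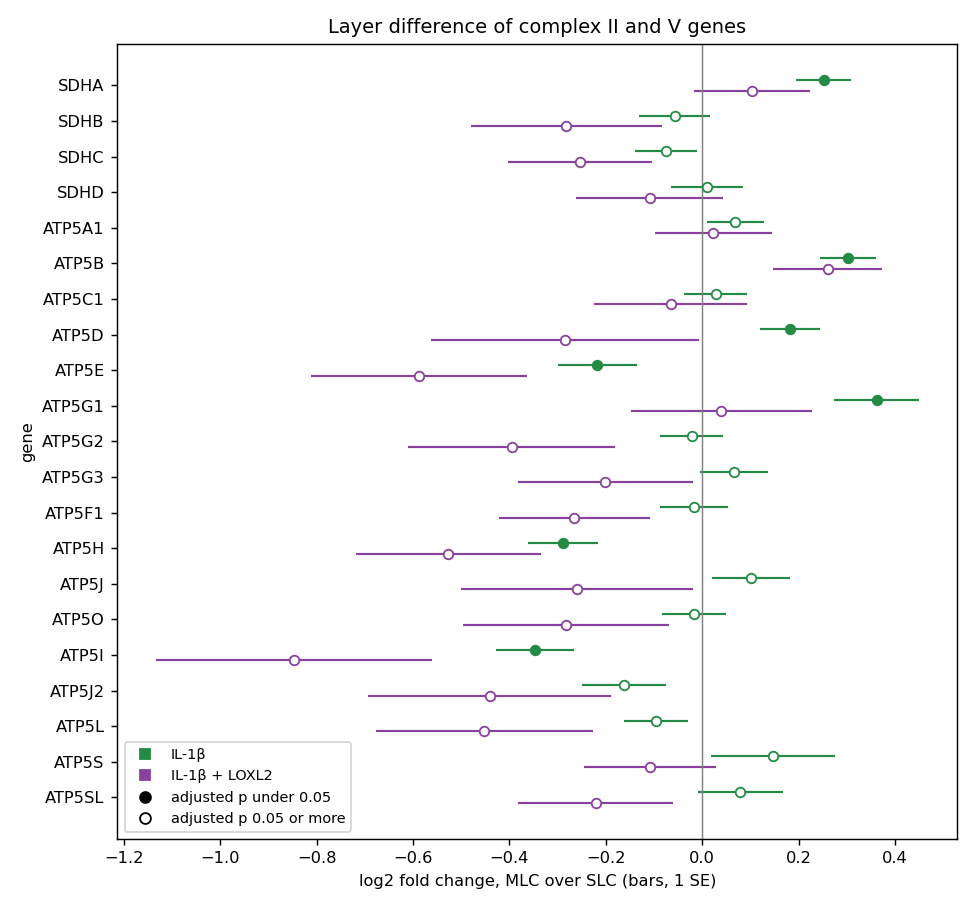
Log2 fold change of MLC over SLC for each gene under IL-1β (green) and with IL-1β + LOXL2 (purple), with 1 SE. Filled points have an adjusted p below 0.05 by edgeR. Under IL-1β 4 filled points lie above 0 and 3 below, and with LOXL2 there is no filled point.

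Partners of the ATP synthase were read from fixed lists. ATPIF1, the inhibitor that stops the enzyme from running backwards and splitting ATP, was at 45.4, 41.6 and 49.5 CPM in SLC with IL-1β and at 53.1, 88.0 and 84.0 CPM with LOXL2. In MLC it was at 45.8, 39.8 and 45.4 CPM against 50.9, 60.6 and 65.4 CPM, with no overlap in either layer. It passed the test in MLC at 0.43 ± 0.11 (SE), with an adjusted p of 0.0267 by edgeR, and its SLC value was 0.70 ± 0.19. USMG5, a small subunit of the synthase dimer also known as DAPIT, was at 1.11 ± 0.20 in SLC and 0.42 ± 0.14 in MLC, with adjusted p of 0.0706 and 0.0537 by edgeR. Of 5 assembly factors of complex V, ATPAF2 and FMC1, which serve the F1 part, passed the test in MLC at 0.49 and 0.53. Over all genes, 9.81% were called higher in MLC. ATPAF1, the factor for subunit beta, had -0.08 in MLC and -0.05 in SLC.

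The subunits that mitochondrial DNA supplies had differences of both signs. ATP6 had log2 fold changes of -0.32 ± 0.29 (SE) in SLC and -0.02 ± 0.11 in MLC, and ATP8 was at 0.1 CPM or less in all libraries. For the complexes whose nuclear genes were not analysed here, CYTB of complex III had -0.46 ± 0.20 and -0.26 ± 0.10, and COX1, the catalytic subunit of complex IV, had -0.44 ± 0.19 and -0.15 ± 0.09. COX2 and COX3 had 0.25 and 0.26 in SLC and 0.14 and 0.20 in MLC. None of these passed the test. Of 12 mitochondrial genes tested in MLC 1 was called, ND3 of complex I at 0.55 ± 0.18, a count near the 9.81% of all genes called higher. Libraries were made from poly-T selected RNA, which affects how mitochondrial transcripts are caught.

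Of the genes around complexes III and IV, NDUFA4, a subunit now placed in complex IV, passed the test in MLC at 0.46 ± 0.12 (SE) with an adjusted p of 0.0257 by edgeR. It was at 76.3, 75.1 and 83.9 CPM in SLC with IL-1β and at 95.2, 154.3 and 128.1 CPM with LOXL2. Among 9 assembly factors of complex IV, CMC1, CMC2 and SLIRP were called higher in MLC, where 9.81% of all genes were. The MLC estimates of 5 of the 9 were higher and those of 4 lower. Among 3 assembly factors of complex III none was called in MLC, also by DESeq2 and at an unadjusted p under 0.05. HIGD2A, which aids the joining of complexes III and IV, was called at 0.43.

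Regulators of mitochondrial gene expression had few calls. Of 17 tested in MLC, 3 were called lower, a count near the 11.8% of all genes called lower, and DESeq2 called 2 lower, where it called 14.1% of genes. At an unadjusted p under 0.05 there were 4 lower, where 20.1% of genes were. None was called higher, also by DESeq2 and at an unadjusted p under 0.05. The 3 genes called by edgeR were GABPA, an ETS factor of nuclear respiratory gene promoters, at -0.39 ± 0.11 (SE), PPARA at -0.38 ± 0.12 and the coactivator PPARGC1B at -0.89 ± 0.28. GABPA was at 52.5, 50.5 and 53.9 CPM in MLC with IL-1β and at 45.7, 37.4 and 37.3 CPM with LOXL2. NRF1 and TFAM had -0.25 ± 0.12 and -0.20 ± 0.13 in MLC and did not pass. The estimates of 5 of the 17 were higher in MLC and those of 5 of 18 in SLC. Over all genes, 50.9% and 50.7% were higher. ESRRA was at 36.0, 31.9 and 35.5 CPM in SLC with IL-1β and at 36.6, 45.4 and 47.5 CPM with LOXL2. In MLC it was at 31.7, 34.9 and 33.9 CPM against 33.9, 36.9 and 39.9 CPM. In SLC 0 of 18 passed, with 2 higher and 5 lower at an unadjusted p under 0.05, where 23.1% and 20.2% of all genes were, and 1 higher and 3 lower by DESeq2, where 16.3% and 14.1% were.

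Other large gene groups were set beside the members for scale. Complex I subunits had medians of 0.74 in SLC and 0.44 in MLC, with 26 of 36 called higher in MLC. Mitochondrial ribosomal protein genes had 0.64 and 0.37, with 35 of 77 called. Cytosolic ribosomal protein genes had 0.83 and 0.43, with 71 of 86 called higher and 1 lower. The test called 9.81% of all genes higher and 11.8% lower in MLC. In SLC it called 0 genes of these groups and 0% of all genes. The medians of complex V, 0.71 and 0.43, lay within the range of these groups in both layers.

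Markers of other cell types were present at unequal levels. The 6 endothelial markers summed to at most 5.2 CPM in any library. The 7 macrophage and leukocyte markers found summed to 78.1 to 95.4 CPM in SLC with IL-1β and 56.8 to 97.5 CPM with LOXL2, and to 95.9 to 140.7 against 85.3 to 99.9 CPM in MLC. Most of this was CD14, at 47.6 to 86.5 CPM in SLC and 76.7 to 132.3 CPM in MLC, while PTPRC, the defining leukocyte marker, was at 0 in all 6 IL-1β libraries and at 0.103 CPM or less with LOXL2. The 7 osteoblast markers summed to 50.4 to 53.4 CPM in SLC with IL-1β and 40.8 to 56.3 CPM with LOXL2, and to 123.8 to 129.0 against 125.0 to 130.3 CPM in MLC, with DMP1 at 0 in every library. SPP1 made up most of the osteoblast sum in MLC, at 97.2 to 102.2 CPM. Markers of skeletal muscle, a tissue rich in mitochondria, summed to 7.04 to 9.09 CPM in SLC with IL-1β and 9.98 to 22.2 CPM with LOXL2. In MLC they summed to 2.39 to 3.25 against 3.35 to 4.31 CPM. Most of this was the single gene TNNT3, at 6.65 to 8.54 CPM in SLC with IL-1β and 9.25 to 21.4 CPM with LOXL2. ACTA1 and DES were at most 0.35 and 0.57 CPM in any library, and MYOG was at 0 in every library. Chondrocyte markers summed to 1315 to 1430 CPM in SLC with IL-1β and 757 to 1317 CPM with LOXL2, and to 1763 to 1916 against 1500 to 1876 CPM in MLC. In SLC with IL-1β, ACAN was 45.5 to 50.4 CPM and SOX9 19.7 to 22.2 CPM, so other genes of the list made up most of that sum. The 10 fibrocartilage and superficial layer markers summed to 71942 to 73970 CPM in SLC with IL-1β and 64447 to 73448 CPM with LOXL2. In MLC they summed to 73016 to 74232 against 72708 to 77554 CPM. Under IL-1β, 5 of the 9 tested were called higher in MLC and 2 lower, where 24.2% and 22.7% of all genes were. The part of these shifts in the results was not tested.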

How the data were processed

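Goat TMJ cells were sequenced in 12 libraries, 3 per group. Each layer has a deposited table of raw read counts, 1 row a gene. Per the study's methods, paired-end reads were mapped to ARS1.2 and counted with featureCounts, and the submitters' processing notes also name HISAT2. Strand and multi-mapping settings are not given in the sources used here. RNA extraction is given as RNeasy by the labels and as TRIzol by the study's methods.

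Counts of all genes were fitted with the quasi-likelihood functions glmQLFit and glmQLFTest of edgeR 4.0.16 (R 4.3.3), after TMM scaling and the filterByExpr filter at its limits of 10 and 15 counts, in the 6 libraries of a comparison, or 12 for the interaction, adjusted by Benjamini-Hochberg and called below 0.05. All 21 members passed the filter in every comparison. SE is the size of the log2 fold change over the root of its F statistic. CPM used TMM factors from all 12 libraries. DESeq2 1.42.0 was an alternative, as were other scalings and filters, a replicate block, each library left out, a fit of all 12 libraries, and an offset removing the lowess trend of log2 CPM on gene span (span 0.3). Settings that combine alternatives were added after seeing the data. The fits were tested on simulated data. Spans and coordinates are from RefSeq for ARS1.2, and symbols were matched for all 21 members.

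Every pair of replicates differed by more than counting noise, with a chi-square of 2.30 or more per degree of freedom. P-values measure the spread between these libraries, which may be technical. Same-numbered deviations correlated at 0.605, 0.206 and 0.164 between the SLC and MLC groups with LOXL2. A pair with unlike numbers, SLC replicate 2 and MLC replicate 3, correlated at 0.451, so pairing by number is uncertain. The blocked values stand beside the result of MLC against SLC with LOXL2 as an alternative. In the other comparisons at least 1 same-numbered pair was below 0.1.

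Named genes were fixed as the complex II genes, the alpha, beta, c and OSCP genes, the ATP synthase inhibitor, the highest and lowest member of each complex in each layer, and genes counted in 5 or fewer. Others were chosen after their values were seen. Members and lists were chosen with earlier results of these data known. The COX4, COX6A and COX7A isoform shares were not analysed here.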

Additional observations from a re-analysis of the deposited data

How the results depend on the processing

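In SLC, members called higher with LOXL2 went from 0 to 17 with DESeq2 and to 20 in the fit of all 12 libraries. The share of all genes called higher went from 0% to 16.3% and 22.5%. With the span trend removed and the first SLC replicate with LOXL2 left out, 18 members were called (share of all genes not given here). Leaving out single libraries gave 0 to 20 members, where 0% to 31% of all genes were called higher. In MLC, members called higher went from 12 to 0 in the fit of all 12 libraries and to 7 with the span trend removed. There the share of all genes went from 9.81% to 0% and 7.79%. Leaving out single MLC libraries gave 0 to 20 members, and 23.7% of all genes were called higher at 20 members. For MLC against SLC under IL-1β, 4 members were called higher and 3 lower, where 24.2% and 22.7% of all genes were. They became 1 and 0 in the fit of all 12 libraries, where 14.2% of all genes were called higher. The lower ones became 5 with the span trend removed, and leaving out single libraries gave 3 to 5 higher and 2 to 4 lower. Shares of all genes for these last settings are not given here. With LOXL2, members lower in MLC went from 0 to 1 with DESeq2, and to 3 with the replicate block, in the fit of all 12 libraries and with the span trend removed. The share of all genes called lower went from 6.83% to 13.2% with the replicate block, and is not given here for the other settings. The fit of all 12 libraries also called 1 member higher. Leaving out single libraries gave 0 to 11 members lower, and 16.1% of all genes were called lower at 11 members. The interaction stayed at 0 in either direction under all alternatives run. The ATP5G1 share differed with LOXL2 by 0.99 to 1.80 percentage points when single libraries were left out, and passed the threshold in 3 of these; the layer difference was 2.55 to 3.35.

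With the span trend removed, ATP5B reversed to -0.039 in SLC (-0.076 also without the first replicate with LOXL2) and ATP5S to -0.061 in MLC (-0.049 also without the first replicate with LOXL2). Leaving out single libraries gave ATP5S -0.020 to 0.14 in MLC, below 0 without the third IL-1β replicate. The interaction of ATP5B reversed to 0.047 with the span trend removed. The cause of these changes was not tested. Outside MLC against SLC with LOXL2, where its values stand in the report, the replicate block changed no count of members called by more than 1.5 times. The replicate numbers were not taken to pair libraries in any comparison. In the comparisons other than MLC against SLC with LOXL2, same-numbered correlations ranged from -0.22 to 0.13. A per-length version of the ATP5G1 share was not run, since no transcript lengths were used here.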

Other observations

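Succinate dehydrogenase also works in the tricarboxylic acid cycle, and the other enzymes of the cycle had differences of both signs. Of 16 genes of the cycle tested, 10 were higher in the mean with LOXL2 in each layer, where 50.7% of all genes in SLC and 50.9% in MLC were. Their medians were 0.08 in SLC and 0.07 in MLC on the log2 scale. In MLC, 3 were called higher and 1 lower by edgeR, where 9.81% and 11.8% of all genes were. MDH2, the mitochondrial malate dehydrogenase, was called at 0.39 ± 0.11 (SE) and SUCLG1, a subunit of succinyl-CoA ligase, at 0.37 ± 0.12, as was IDH3G, a subunit of isocitrate dehydrogenase, at 0.37 ± 0.12. The gene called lower was PDHA1, a subunit of the pyruvate dehydrogenase that feeds the cycle, at -0.71 ± 0.22. In SLC none was called by edgeR, with 6 higher and 1 lower at an unadjusted p under 0.05, where 23.1% and 20.2% of all genes were. DESeq2 called 3 higher and 1 lower in SLC, where it called 16.3% and 14.1% of all genes. There PDHA1 had -1.39 ± 0.46, and SUCLG1, IDH3G and MDH2 had 0.60, 0.51 and 0.50. CS, which makes citrate, had -0.16 in each layer and was not called. FH, the fumarase that takes the product of complex II, had 0.17 in each layer and was not called. The list was chosen with earlier results of these data known.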
